A study of Mus musculus with 4 samples.

Results

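The genes described here encode RNA helicases of the DEAD box and DEAH box families in mouse. They were chosen by name, with earlier results of these data known. The rule took every gene whose array symbol begins with Ddx or Dhx followed by a digit, and left out 1 germ cell member. This gave 50 genes, 34 named Ddx and 16 named Dhx, of 18194 genes in all. Each gene was read from the probe set with the highest mean over the 4 arrays, among probe sets assigned to 1 symbol. The culture, SFEBq, lets dispersed mouse embryonic stem (ES) cells reaggregate quickly and float in medium without serum. Total RNA was taken at its start, day 0, from ES cells, and at day 3, when the aggregates are called an epiblast-like tissue. Each day had 2 samples, numbered 1 and 2, each on 1 Affymetrix array, and the labels give no genotype, strain, knockdown or added agent. The labels do not say whether samples came from separate cultures, so p-values measure the spread between these samples only, which may be technical. Time and culture treatment change together between the days and cannot be told apart.

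DEAD and DEAH box proteins use ATP to bind, unwind or remodel RNA and the proteins on it. DEAD box members mostly open short duplexes locally, whereas DEAH box members move along a strand, often after activation by a partner with a G-patch motif. Most of them serve steps that every cell needs: assembly of ribosomes in the nucleolus, splicing, export of mRNA, translation and decay. A few are sensors of viral RNA, and others are mainly expressed in germ cells.

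Members fell far more often than they rose between day 0 and day 3. At an adjusted p under 0.05, 29 of the 50 fell and 1, Dhx40, rose, while 20 were not called. Of all genes tested, 21.4% were called lower and 20.9% higher. Bright genes are called more often, and 46 of the 50 members lay above the median level of all genes. Among genes above that level, 33.7% were called lower and 29% higher, against 28 and 1 of those 46 members. Most differences were small: 40 of the 50 lay within 0.5 on the log2 scale, in which 1 unit is a doubling. The same held for 13790 of all 18194 genes, and above the median level for 37 of 46 members and 6139 of 9097 genes. Falls by more than 1 were those of Dhx16, a helicase that activates the spliceosome (-1.74 ± 0.06, log2 difference ± SE), Ddx43, a germ cell helicase (-1.73 ± 0.11), and Dhx32, whose role is poorly known (-1.42 ± 0.08). Dhx16 and Ddx43 differ by less than their errors and have no order. No member rose by more than 0.19.

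The median difference of the members was -0.22, against 0.01 for all genes and -0.04 for those above the median level. The value was -0.22 as well for the 47 members other than those with the largest falls. The arrays of day 3 all lay below those of day 0 for 37 members, and the share of such genes among all genes was 33.7%. Above the median level this held for 34 of 46 members and for 4144 of 9097 genes. By name, 20 of 34 Ddx genes and 9 of 16 Dhx genes were lower, with median differences of -0.21 and -0.30; the difference between these branches was not tested. In bulk samples, fewer cells of a type and less RNA per cell cannot be told apart. The deposited values were made with RMA, which gives all arrays like distributions, so they are relative to the other genes and cannot show a change in total RNA.

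**Figure D1:**
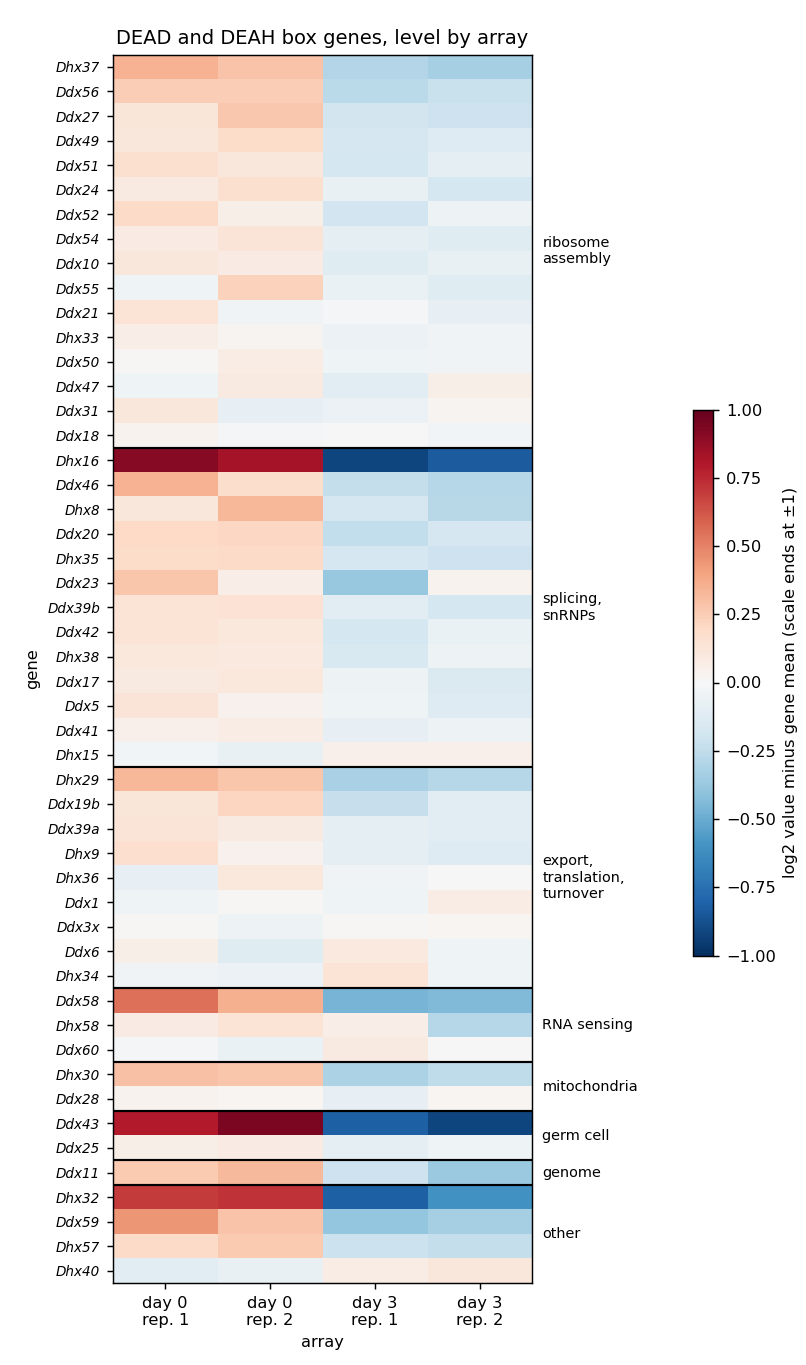
Level of each of the 50 members (rows, grouped by role) on each of the 4 arrays (columns), as the log2 value minus the gene's mean over the arrays; red is above that mean and blue below. Dhx16, Ddx43 and Dhx32 stand out by their colour, and most other members are faintly red at day 0 and faintly blue at day 3.

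Markers of several cell types differed between the days. All 8 markers of naive pluripotency fell, and 4 of 5 epiblast markers rose, from Dnmt3b (1.37) to Fgf5 (7.57), while Pou5f1 had a difference of 0.0027. Of 12 visceral endoderm markers 11 rose, and their summed level, as the log2 of the sum of linear signals, went from 11.2 to 11.3 at day 0 to 14.4 to 14.6 at day 3. Of 7 fibroblast markers 3 rose, with a summed level of 7.998 or slightly more on both day 0 arrays and 9.02 on both at day 3, while Lum, Col3a1, Col1a1 and Postn were not called and Lum, Col3a1 and Postn were below the first quartile of all values (4.32). The part of these cell types in the helicase differences was not tested. Duplicate arrays differed by a median of 0.061 over the members at day 0 and 0.063 at day 3, and the widest gaps were 0.27 for Ddx55 and 0.42 for Ddx23.

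The 3 sequences that follow show the 250 bases just before the transcription start of members with large falls and 1 listed start, so that a reader can see how unlike they are. They come from RefSeq, build GRCm38.p6, in the 5′ to 3′ direction of the gene. Capitals mark matches, on either strand, to any of 5 motifs: the E-box CACGTG, the ETS motif CCGGAAG, the NRF1 core GCATGCGC, the TATA box TATAAA and the CCAAT box CCAAT. Dhx16 (chr17:35879528-35879777, plus strand) has an ETS motif close to its start, and Ddx43 (chr9:78395527-78395776, plus strand) has CCAAT boxes in both orientations. Ddx58 (chr4:40239826-40240075, minus strand), which encodes the RNA sensor RIG-I, has a TATA box match that lies nearer the far end of the window than the start.
Dhx16: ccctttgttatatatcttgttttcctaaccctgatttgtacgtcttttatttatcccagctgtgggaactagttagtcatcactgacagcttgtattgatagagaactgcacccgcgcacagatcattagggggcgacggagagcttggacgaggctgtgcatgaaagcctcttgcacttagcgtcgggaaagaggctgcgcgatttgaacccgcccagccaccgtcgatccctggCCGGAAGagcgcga
Ddx43: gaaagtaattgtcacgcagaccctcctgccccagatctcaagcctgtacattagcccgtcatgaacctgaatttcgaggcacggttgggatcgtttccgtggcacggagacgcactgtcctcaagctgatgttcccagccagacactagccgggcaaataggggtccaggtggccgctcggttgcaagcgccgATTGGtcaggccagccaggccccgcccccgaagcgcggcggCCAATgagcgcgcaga
Ddx58: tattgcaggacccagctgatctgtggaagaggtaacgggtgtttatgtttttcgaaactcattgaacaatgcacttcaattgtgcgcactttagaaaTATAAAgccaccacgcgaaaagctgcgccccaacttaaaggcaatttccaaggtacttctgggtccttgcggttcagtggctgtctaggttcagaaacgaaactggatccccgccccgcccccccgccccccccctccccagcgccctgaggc

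Promoters were matched by symbol for 44 members and searched in the same way beside 17492 protein-coding genes, counting a gene if any of its listed starts had a match. The ETS motif was present for 16 members (36.4%), against 10.2% of all genes. The NRF1 core was present for 5 members (11.4%) against 3.32%, and the E-box for 5 (11.4%) against 7.61%. The CCAAT box was present for 20 members (45.5%) against 39.5%, and the TATA box for 4 (9.09%) against 13.7%. Member promoters were also richer in CpG, with a median of 19 CpG in 250 bases against 11, taking the highest count among a gene's listed starts. Most members lay above the median level of all genes, whereas the 17492 genes were not limited by level. The part of base composition and of level in the motif shares was not tested. Of members called lower, 11 of 27 had the ETS motif, and of the other members 5 of 17. A match is a string of letters in this window and not a measured binding site.

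The helicases of the spliceosome and of snRNP assembly held 1 of the 3 falls by more than 1. Of 13 members in this group 9 fell (69.2%), 0 rose and 4 were not called, with a median difference of -0.28. Above the median level of all genes, where 12 of the 13 lay, 33.7% of genes were called lower. Dhx16, the counterpart of yeast Prp2, drives the last remodelling step before the first splicing reaction. Its values were 12.44 and 12.37 at day 0 and 10.62 and 10.70 at day 3. Both day 3 arrays lay far below both day 0 arrays, and the difference of -1.74 (95% interval -1.88 to -1.61, adjusted p = 5.6e-09, limma with Benjamini-Hochberg adjustment) left 29.9% of the day 0 signal. The array had 1 probe set for Dhx16, so no other probe set bears on this value.

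The other DEAH box helicases that act in turn on the spliceosome had smaller differences. Dhx8, the Prp22 counterpart that releases the spliced mRNA, had 9.04 and 9.26 at day 0 and 8.76 and 8.65 at day 3, a fall of 0.44 ± 0.09. Dhx35 fell by 0.37 ± 0.07. Dhx38, the Prp16 counterpart of the second step, differed by -0.20 and was not called (adjusted p = 0.069), although its arrays did not overlap. Dhx15, the Prp43 counterpart that takes the spliceosome apart, had 13.01 and 12.96 at day 0 and 13.08 and 13.08 at day 3, slightly higher but not called (0.10, 95% interval -0.0031 to 0.21, adjusted p = 0.11). Differences between these genes were not tested.

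Among the DEAD box members of this group, Ddx46, the Prp5 counterpart that acts on the U2 particle, fell by 0.52 ± 0.08. Ddx20, a component of the SMN complex that assembles snRNPs, fell by 0.41 ± 0.06. Ddx39b, which helps to recruit U2 and also serves export, fell by 0.28 ± 0.05, and Ddx42, of the SF3b particle, by 0.24 ± 0.08. Ddx23, the Prp28 counterpart, differed by -0.35 ± 0.15 and was not called, with 6.24 and 6.03 at day 0 and a wide gap between the day 3 arrays (0.42), and Ddx41 differed by -0.13. Ddx5 and Ddx17, closely related helicases also known as p68 and p72, fell by 0.17 ± 0.05 and 0.20 ± 0.05. Ddx5 had 13.26 and 13.18 at day 0 and 13.09 and 13.00 at day 3, so the groups did not overlap but came close. Without day 3 replicate 2 the calls of Ddx5 (-0.13), Ddx17 (-0.15), Ddx42 (-0.30) and Dhx8 (-0.39) were lost while Ddx23 was called lower (-0.56, adjusted p = 0.041), so the group's count of 9 was 6. Ddx23 was also called lower without day 0 replicate 2 (-0.45). Also lost were those of Ddx5 (-0.13) and Ddx42 (-0.23) without day 0 replicate 1 and that of Ddx42 (-0.19) without day 3 replicate 1. The group's count was 2 with an unmoderated test per gene and 6 without the intensity trend, and Ddx5 was not called when probe sets were averaged (-0.15, adjusted p = 0.0981).

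Helicases of ribosome assembly leaned lower, mostly by little. Of 16 members 9 fell (56.2%), 0 rose and 7 were not called, all 16 differences were negative, and the median was -0.20. All 16 lay above the median level of all genes, where 33.7% were called lower. Dhx37, which acts on the U3 particle in the small subunit precursor, fell most, with 7.39 and 7.32 at day 0 and 6.75 and 6.70 at day 3, a difference of -0.63 ± 0.10. Ddx56 (-0.49), Ddx27 (-0.39), Ddx49 (-0.30), Ddx51 (-0.27), Ddx24 (-0.25), Ddx52 (-0.25), Ddx54 (-0.21) and Ddx10 (-0.19) also fell. Ddx27 and Ddx51 act in the maturation of the large subunit rRNA, and Ddx52 is the counterpart of yeast Rok1 in small subunit assembly. The members not called were Ddx55 (-0.19), Ddx21 (-0.10), Dhx33 (-0.09), Ddx50 (-0.08), Ddx47 (-0.05), Ddx31 (-0.03) and Ddx18 (-0.02).

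Ddx21, an abundant nucleolar helicase that links rRNA transcription and processing, had 11.66 and 11.49 at day 0 and 11.51 and 11.44 at day 3. These groups overlapped, and the difference of -0.10 was not called (95% interval -0.25 to 0.05, adjusted p = 0.295). Its second probe set disagreed, falling by 0.78 ± 0.09 from 10.19 to 9.41 (adjusted p = 8.9e-05 over all probe sets). The kept probe set itself was called lower without day 0 replicate 2 (-0.18, adjusted p = 0.0495), so the call for Ddx21 rests on the probe set and on 1 array. The count of 9 lower members in this group became 5 when day 3 replicate 1 was left out and 4 when day 3 replicate 2 was, and the calls lost were those of Ddx10, Ddx51, Ddx52 and Ddx54 without the first (-0.23 to -0.17) and these 4 and Ddx24 without the second (-0.32 to -0.19). Ddx10 and Ddx52 also lost their call without day 0 replicate 1 (-0.18 each), while Ddx55 was then called lower (-0.33). The group's count was also 5 without the intensity trend and 2 with an unmoderated test per gene. Averaging all probe sets of a gene ended the calls of Ddx49 (-0.17, adjusted p = 0.12) and Ddx54 (-0.16, adjusted p = 0.116) and added Ddx21 (-0.44), Ddx50 (-0.32) and Dhx33 (-0.21).

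**Figure D2:**
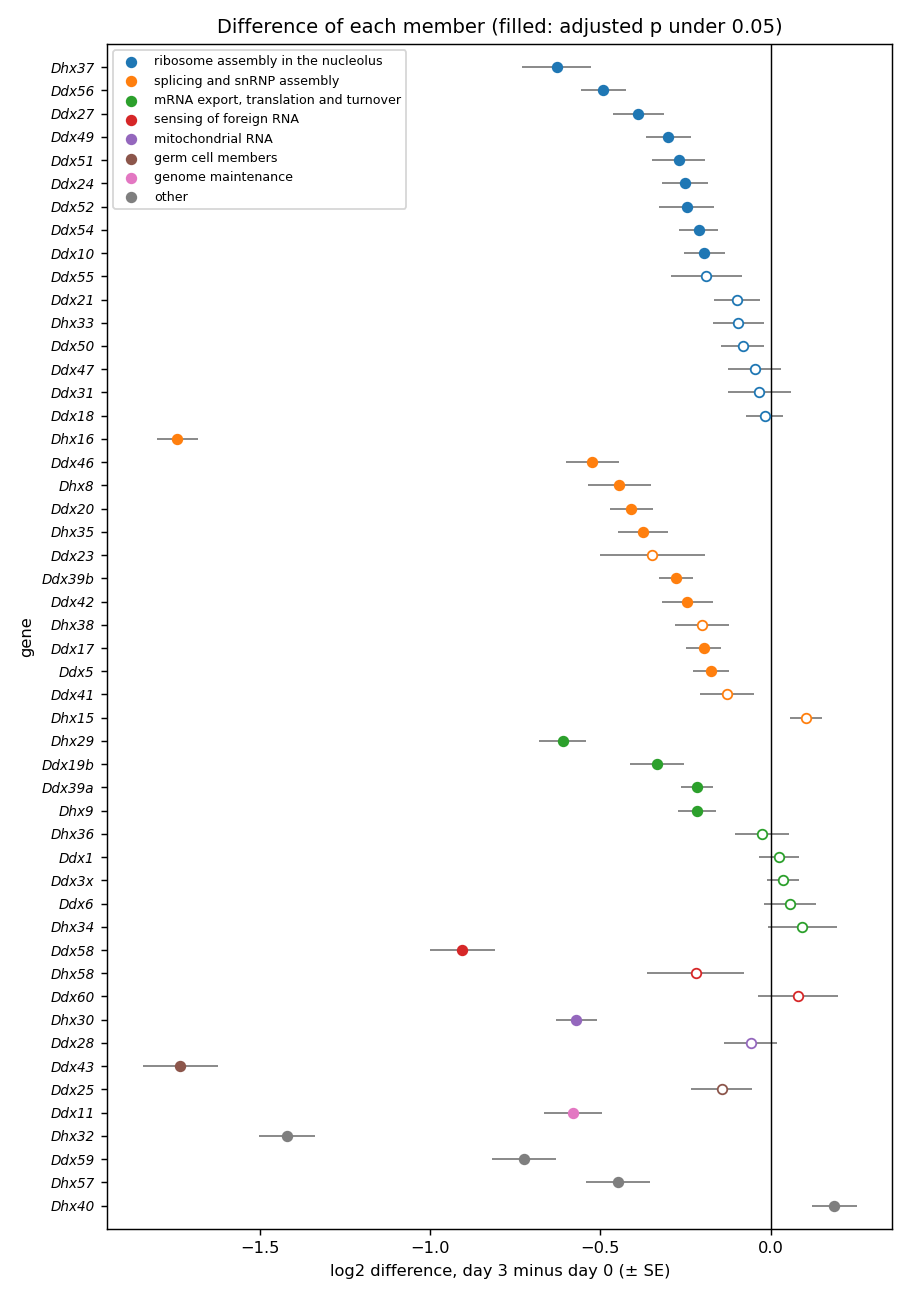
Log2 difference, day 3 minus day 0, of each member (points, coloured by role) with its standard error (bars); filled points have an adjusted p under 0.05. All members of ribosome assembly lie left of 0, and Dhx40 at 0.19 is the filled point on the right.

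Helicases of mRNA export, translation and turnover were split. This group had 9 members with a median of -0.03, of which 4 were called lower (44.4%), 0 higher and 5 neither. All 9 lay above the median level of all genes, where 33.7% were called lower, a share near that of the group. Dhx29, which helps the small ribosomal subunit to scan structured leaders, fell most, from 10.06 and 9.997 to 9.39 and 9.44, a difference of -0.61 ± 0.07. Ddx19b, the counterpart of the export factor Dbp5 at the nuclear pore, fell by 0.33 ± 0.08, and Ddx39a, an export helicase closely related to Ddx39b, by 0.22 ± 0.05. Dhx9, known as RNA helicase A, had 12.80 and 12.68 at day 0 and 12.54 and 12.50 at day 3, a fall of 0.22 ± 0.06. Dhx9 lost its call without day 0 replicate 1 (-0.15) or either day 3 array (-0.23 and -0.20), Ddx19b lost it without day 3 replicate 1 (-0.27), and without that array the group's count of 4 was 2. Without the intensity trend the count was 2, with Ddx39a (adjusted p = 0.0746) and Dhx9 (adjusted p = 0.0959) no longer called, and with the unmoderated test it was 1. Averaging probe sets also gave 2, without Ddx19b (-0.21, adjusted p = 0.0603) and Dhx9 (-0.18, adjusted p = 0.0675).

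The other helicases of this group were not called. Ddx3x, which supports initiation on structured mRNAs, had 13.36 and 13.30 at day 0 and 13.36 and 13.37 at day 3. Its difference of 0.04 was not called, and its 95% interval of -0.07 to 0.14 leaves room for a small change either way. Ddx6, a helicase of P-bodies and mRNA storage, had 11.24 and 11.06 at day 0 and 11.28 and 11.14 at day 3, and its groups overlapped (0.06, 95% interval -0.11 to 0.23). Of its 3 other probe sets, differences were -0.05, 0.50 (adjusted p = 0.054, day 3 arrays above day 0) and 0.53 (adjusted p = 0.10), none called, and averaging all of them gave 0.26 (adjusted p = 0.078). Ddx1, part of the tRNA ligase complex, had 11.89 and 11.95 at day 0 and 11.89 and 12.00 at day 3 (0.02, interval -0.11 to 0.16). Dhx36, which opens G-quadruplexes, differed by -0.03, and Dhx34, of nonsense-mediated decay, by 0.09. The sign of the Ddx1 difference turned when day 0 replicate 1 (-0.0026) or day 3 replicate 2 (-0.03) was left out, and that of Ddx6 when day 0 replicate 2 (-0.03) or day 3 replicate 1 (-0.01) was.

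**Figure D3:**
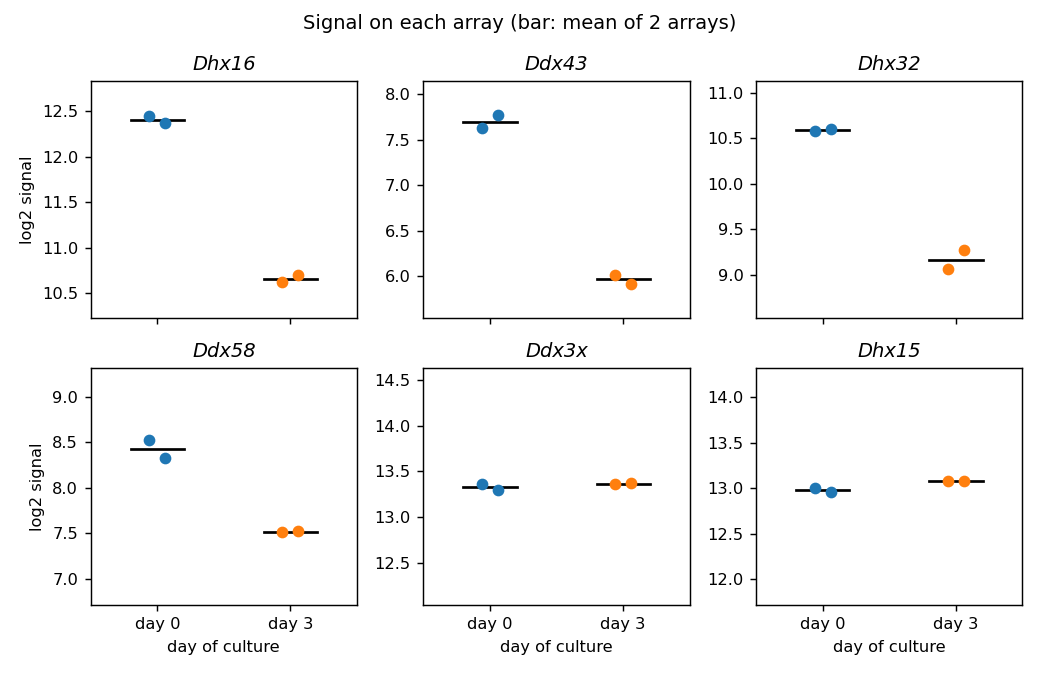
Log2 signal of 6 members on each array (points) with the mean of each day (bars), every panel with the same span of the axis. Dhx16, Ddx43, Dhx32 and Ddx58 are lower on both day 3 arrays, while Ddx3x and Dhx15 differ by 0.04 and 0.10.

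Of the 3 sensors of foreign RNA 1 fell (33.3%), Ddx58. Of all genes 21.4% were called lower, and 33.7% of those above the median level, where 1 of the 3 lay. Ddx58 encodes RIG-I, which binds viral RNA ends and signals through Mavs. Its values were 8.52 and 8.33 at day 0 and 7.51 and 7.53 at day 3, and the difference of -0.91 ± 0.10 (adjusted p = 2.2e-05) left 53.4% of the day 0 signal. Ddx58 lost its call with an unmoderated test per gene (adjusted p = 0.0623). Of its 2 other probe sets 1 fell (-0.64) and 1 did not (0.02, near 4.95 on all arrays). Dhx58, known as Lgp2, differed by -0.22 and Ddx60 by 0.08, both uncalled and dim: the means of Ddx60 were 3.45 at day 0 and 3.53 at day 3, below the first quartile of all values, where a fall can hardly be seen.

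Ddx43 marks the germ cell members. It is known from testis and tumours, and had 7.62 and 7.77 at day 0 and 6.01 and 5.91 at day 3. Both day 3 values were well below both day 0 values, and the difference of -1.73 (95% interval -1.98 to -1.49, adjusted p = 4.4e-07) left 30.1% of the day 0 signal. Ddx25, a helicase of late spermatogenesis, differed by -0.14 ± 0.09 and was not called (adjusted p = 0.24). Ddx43 and Ddx25 each had 1 probe set.

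The remaining members have varied roles. Dhx30, needed for assembly of the mitochondrial ribosome, fell from 11.17 and 11.15 to 10.56 and 10.62, a difference of -0.57 ± 0.06, whereas Ddx28, another mitochondrial helicase, differed by -0.06. Ddx11, a DNA helicase of sister chromatid cohesion, had 8.98 and 9.05 at day 0 and 8.52 and 8.35 at day 3, a fall of 0.58 ± 0.09 shared by its second probe set (-0.68). Dhx32 had 10.58 and 10.60 at day 0 and 9.06 and 9.27 at day 3, 37.3% of the day 0 signal. Ddx59 (-0.73) and Dhx57 (-0.45) also fell, with 1 probe set each.

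Dhx40 was the 1 member called higher, and only just. It had 9.86 and 9.91 at day 0 and 10.06 and 10.09 at day 3, a rise of 0.19 ± 0.07 (adjusted p = 0.042). The groups did not overlap, but the call was lost if day 0 replicate 1 (0.17), day 3 replicate 1 (0.20) or day 3 replicate 2 (0.17) was left out, with the replicate number as a block (adjusted p = 0.055) and after median centring (0.18, adjusted p = 0.051). It was also lost without the intensity trend (adjusted p = 0.116), with an unmoderated test per gene (adjusted p = 0.0862) and in the fit over all probe sets (adjusted p = 0.0568).

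Probe sets of a member often differed in size and call. The 50 members had 112 probe sets, of which 50 were called lower, 1 higher and 61 neither in a fit over all 34958 probe sets, 19% of which were called lower. The 1 called higher was of Dhx36, and the probe set of Dhx40 was not called in this fit (adjusted p = 0.0568). Of 34 members with more than 1 probe set, 22 had negative differences on every probe set, and 0 had calls in opposite directions. Dhx32 had a second, dimmer probe set with a difference of -0.13 that was not called, and Dhx29 had one with 0.03. Ddx27 had a larger fall on its dimmer probe set (-0.95 against -0.39). Ddx3x had a dimmer probe set that fell (-0.24 ± 0.07, adjusted p = 0.025), beside its brighter pair at 0.04 and 0.0060. Dhx36 had a probe set that rose (0.44 ± 0.08, adjusted p = 0.0012), beside the kept one at -0.03. Close relatives such as Ddx39a and Ddx39b, or Ddx5 and Ddx17, can share target sequence, so their separate values are less certain.

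**Figure D4:**
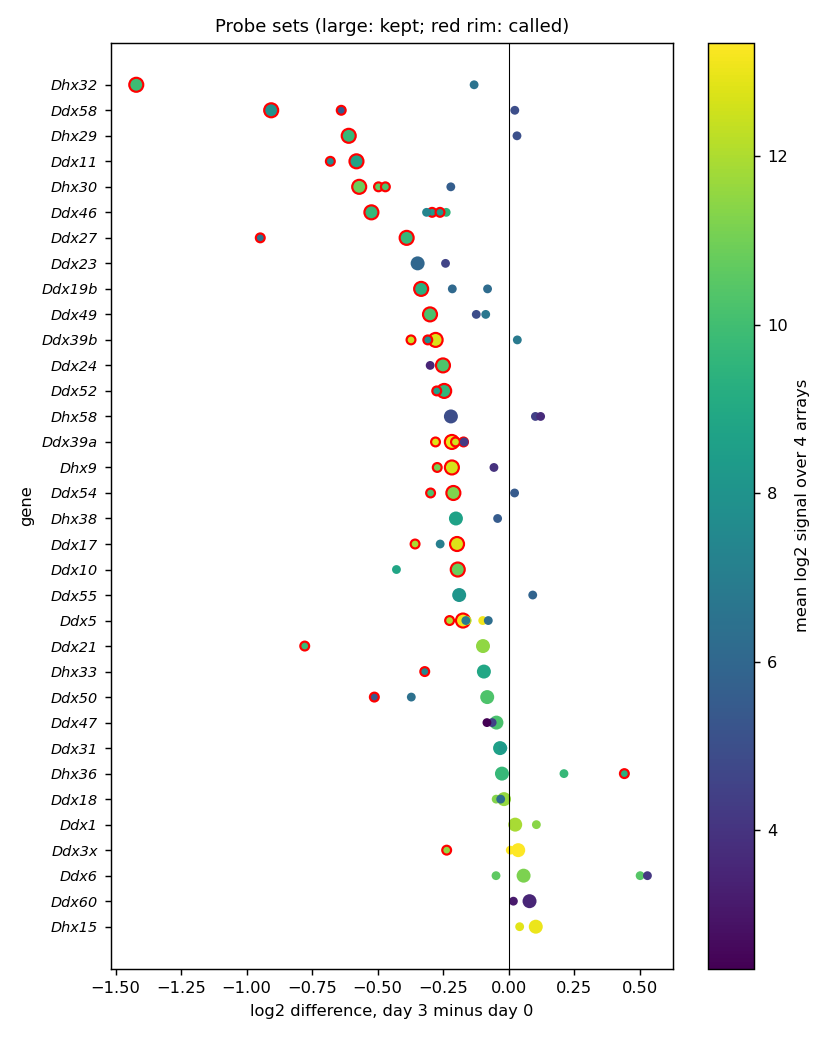
Difference, day 3 minus day 0 on the log2 scale, of every probe set of the 34 members that have more than 1; colour is mean signal, large points are the probe sets kept and a red rim marks an adjusted p under 0.05. Dhx32 and Ddx58 each hold a called probe set far below 0 and an uncalled one nearer 0.

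Negative differences were the rule across the family. Of the 50 differences 43 were negative and 7 positive, while 8795 of 18194 genes had a negative difference. Above the median level of all genes, 40 of 46 members and 4877 of 9097 genes had one. Of the 50 members, 3 fell by more than 1 on the log2 scale and 0 rose by as much, against 773 and 1079 of 18194 genes. Above the median level it was 2 and 0 of 46 members, against 516 and 677 of 9097 genes.

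**Figure D5:**
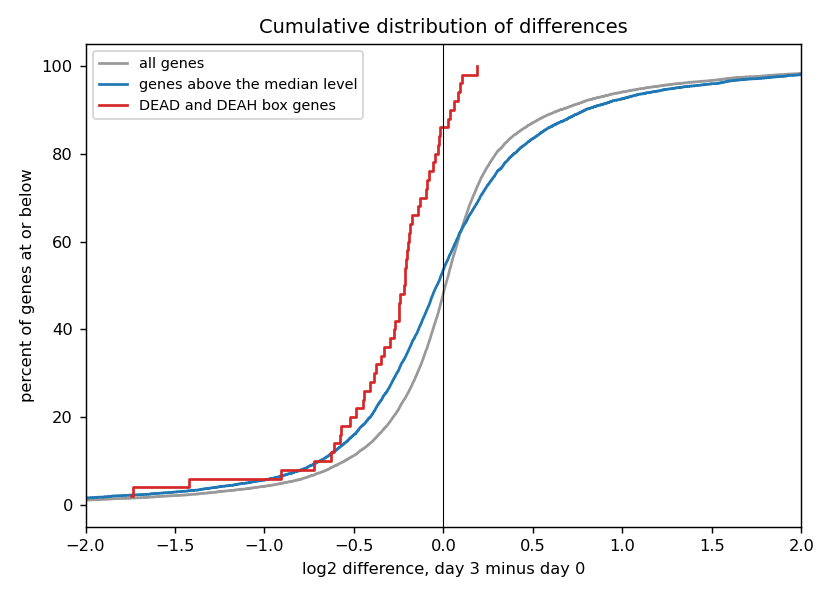
Cumulative share of genes (percent) by log2 difference, day 3 minus day 0, for all genes, genes above the median level and the 50 members; the axis is drawn from -2 to 2. The members' curve climbs steeply just left of 0 and ends at 0.19, where the other curves still rise.

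Related genes outside the naming rule were looked at from fixed lists. Of 21 measured RNA helicases with other names, 8 fell, 2 rose and 11 were not called, with a median of -0.08. The 38.1% called lower stand near the 33.7% among all genes above the median level, where 16 of the 21 lie. Mov10, a helicase of small RNA and retroelement control, fell by 1.35 ± 0.10 and Znfx1 by 0.77 ± 0.13, while Aqr, a splicing helicase (0.59 ± 0.06), and Helz2 (0.42 ± 0.12) rose. Of 27 measured activators and partners 14 fell (51.9%) and 2 rose, with a median of -0.23. Of these 27, 26 lay above the median level of all genes, where 33.7% were called lower. The G-patch protein genes Zgpat (-0.68) and Nkrf (-0.56) had the lowest values. Nkrf and Nup214 (-0.56), which is no G-patch gene, differ by less than their errors and have no order. Cmtr1 (0.28), a G-patch partner of Dhx15, and Edc3 (0.25), a partner of Ddx6, rose. Both partners of Dbp5 at the nuclear pore, Nup214 (-0.56) and Gle1 (-0.46), fell, as did Ddx19b.

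Nucleolar assembly factors that are no helicases also leaned lower, with 12 of 20 lower (60%), 1 higher and a median of -0.30. All 20 lay above the median level of all genes, where 33.7% were called lower. Rrp9, of the U3 particle, fell by 0.67 ± 0.07 and Bop1 by 0.63 ± 0.07, while Nat10, an RNA acetyltransferase, rose by 0.21 ± 0.07. Of 15 measured genes of RNA sensing and the interferon response 6 fell, 1 rose and 8 were not called, with a median of -0.21. This is 40% lower, against 21.4% of all genes and 33.7% of those above the median level, where 6 of the 15 lie. Irf9 fell by 0.89 ± 0.11 and Eif2ak2, the kinase PKR, by 0.71 ± 0.10, while Tbk1, a kinase downstream of Mavs, rose by 0.48 ± 0.06. Mavs itself fell by 0.39 ± 0.09, and Ifih1, the sensor MDA5, was not called (0.27 ± 0.13).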

How the data were processed

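The deposited table holds log2 values for every probe set on 4 Affymetrix arrays. They were made with RMA and R 2.13.0, per the submitters' processing notes. The platform annotation assigned 34958 of 45101 probe sets to 1 gene symbol, giving 18194 genes. Day 3 was compared with day 0 in limma 3.58.1 under R 4.3.3 (lmFit, then eBayes with an intensity trend, no covariate), two-sided, with Benjamini-Hochberg adjustment over all genes and calls at an adjusted p under 0.05. The fit had 2 residual degrees of freedom and a prior of about 8. No filter on low values and no detection call was used. The number of arrays limits the precision.

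The members and lists were chosen with earlier results of these data known, and role groups have no test. Values per array were given for members called with a difference of at least 1, for the largest called rise and fall of each role group and for Ddx3x, Ddx5, Ddx6, Ddx21, Dhx9 and Ddx1; values of Dhx8, Dhx15 and some others were added after they were seen. In lists of related genes the 2 largest called rises and falls are named, and Nup214, Gle1, Mavs and Ifih1 were added after their values were seen. Symbols of listed genes were updated with RefSeq gene names (assembly GRCm38.p6), and entries without a match were not analysed here. Promoter sequences came from RefSeq. Alternatives covered the variance model, scaling, level filter, choice of probe sets, replicate block, each array left out and the threshold.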

Additional observations from a re-analysis of the deposited data

How the results depend on the processing

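A sign could change only with renewed normalization, centring or another choice of probe sets, and none of the lower calls changed sign there. In the other fits on all 4 arrays the difference is the same by construction. Day 3 arrays lay below day 0 arrays for all 29, so leaving out 1 could not turn a sign on the same probe set. All 29 were tested except with genes above the median level only and without probe sets marked _x_at or _s_at, which tested 28 each. Counts of lower calls ranged from 20 to 31 except with an unmoderated test, which kept 8, and with limma's treat, tested against 0.5 on the log2 scale, which called 4 (Ddx43, Ddx58, Dhx16 and Dhx32). With 1 array left out the count was 20 to 31, and 18 of the 29 genes kept their call without any 1 array. The count of higher members was 1 as reported and 0 without the intensity trend, with the unmoderated test, after median centring, with the replicate block, at an adjusted p under 0.01 and with treat (limma throughout), and 2 (Dhx15 and Dhx40) after renewed quantile normalization; with 1 array left out it was 0 to 1. Members higher at an unadjusted p under 0.05 numbered 1 in these fits with 0 calls, except 0 without the trend and with treat. Without day 0 replicate 1 or day 3 replicate 2 they numbered 0. Averaging all probe sets of a gene turned Ddx3x to -0.065. The export, translation and turnover median turned to 0.024 after renewed quantile normalization, and the RNA sensing median to 0.0010 when probe sets were averaged. With 1 array left out the difference ranged from -0.034 to 0.083 for Ddx1 and from -0.034 to 0.15 for Ddx6. The cause of these changes was not tested. Deviations of same-numbered arrays had a correlation of -0.017 over all genes and -0.20 over the members. With 2 arrays per day these values cannot show whether equal numbers share a culture or a run. The replicate block called 29 members lower. The level of Ddx60, below the first quartile, limits what can be seen for that gene.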

Other observations

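The genes on either side of the members with the largest falls, chosen after their values were seen, were read from the order of genes in the RefSeq table. Beside Ddx43 lie Ooep, a maternal factor of the egg, and Dppa5a, a gene of early embryos, which fell by 2.46 ± 0.10 and 0.62 ± 0.04 on the log2 scale. On the other side lie Cgas, a DNA sensor, and Mto1, a mitochondrial tRNA modifier, which fell by 0.97 ± 0.11 and 0.67 ± 0.08. Farther on, Eef1a1 differed by 0.0071 and was not called, and Slc17a5 rose by 1.33 ± 0.08. Beyond Dppa5a, the dim genes Gsta2 (-0.0085) and Omt2b (0.11) were not called. Of all genes, 21.4% were called lower and 20.9% higher. Next to Dhx16, Ppp1r18 fell by 1.47 ± 0.08, while 2310061I04Rik on its other side fell by 0.29 ± 0.07. Within 4 places, Mrps18b (-0.62), Nrm (-0.48) and Mdc1 (-0.25) also fell. Tubb5 rose (0.26), and Atat1 (0.29) and Ppp1r10 (-0.09) were not called. The nearest neighbours of Dhx32, Bccip (0.05) and Fank1 (0.20), were not called. Within 4 places Dock1 fell (-0.55), and the other measured genes were not called. Beside Ddx58, Aco1 rose by 0.70 ± 0.06 and Topors fell by 0.38 ± 0.07. Within 4 places Ndufb6 also fell (-0.27), and the others were not called.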
